A study of Mus musculus with 9 samples.

Results

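In mouse liver, 8 genes that PPARα is known to control in fatty acid oxidation and ketogenesis were followed, namely Cpt1a, Acot1, Cyp4a10, Cyp4a14, Pdk4, Ehhadh, Acadm and Acaa2. They were chosen by name, 8 of the 23284 gene names in a liver RNA-seq table, and all 8 have a row. The 9 libraries come from wild-type (WT) mice and mice lacking p21Cip1 (p21KO), the cell cycle inhibitor encoded by Cdkn1a, on the background the labels give as C57Bl/6. In all, 3 WT mice (replicates 1 to 3) and 2 p21KO mice were fed ad libitum, and 2 WT and 2 p21KO mice went without food for 24 h, and each mouse gave 1 library. The study asked how p21 bears on the response of the liver to fasting. The mice were males, and the allele behind the p21KO label is not given in the labels. Whole liver was sequenced, so a lower level can stand for fewer cells of a type or for less RNA per cell, which cannot be told apart.

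PPARα (encoded by Ppara) is a nuclear receptor of hepatocytes that is activated by fatty acids and binds DNA together with RXR. In fasting, fatty acids released from fat tissue reach the liver, where CPT1A lets them into mitochondria, β-oxidation shortens them to acetyl-CoA, and part of the acetyl-CoA becomes ketone bodies. Peroxisomes and the microsomal CYP4A enzymes handle very long or dicarboxylic fatty acids. Genes of all these steps are textbook targets of PPARα.

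The values are FPKM, fragments scaled by transcript length and by the mapped reads of the library, with a single column of names for all 9 libraries. Of the 9 columns, that of p21KO fasted replicate 2 follows the names most closely, and the other 8 keep an order of their own, so the same row need not be the same gene in every library. For each gene the highest FPKM within 10 rows of its name was therefore taken in each library, beside the value on the named row. A gene counted as readable where its name stands on 1 row only, where its own row was the highest of its 21 rows in p21KO fasted replicate 2, and where the highest value was at least 3 times the next highest in every library. In all 181 genes were readable, and of the 8 members only Acadm was. With 2 times in place of 3 times, 301 genes were readable, among them Cpt1a and Acaa2. The other 5 members, Acot1, Cyp4a10, Cyp4a14, Pdk4 and Ehhadh, had no lone high value in some libraries, so their values are given by library, with no fold change of the gene and no test.

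Over the 181 readable genes, Pearson's r between 2 libraries was 0.849 to 0.983, with a median of 0.970 within groups and 0.928 between groups (over genes within pairs of libraries, and genes are no replicates). Column sums lay between 349965 and 440780 FPKM, and read depth is unknown. Cdkn1a could not be read, since its named row held at most 0.437 FPKM in 8 libraries and 2.27 FPKM in p21KO fasted replicate 2, so it gives no check of the genotype. Of the 8 hepatocyte markers Ttr and Trf were readable. Alb, for serum albumin, stood at 24022 to 29662 FPKM within 10 rows of its name in 5 libraries and was not found there in the other 4. None of 20 markers of other cell types was readable, with 12 of them under 1 FPKM on the named row of p21KO fasted replicate 2 and Cd74 highest at 22.7 FPKM. Any part of other cell types in the results was not tested.

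Of the members, Acadm, Cpt1a and Ehhadh are shown with the 250 bases before their starts, since Acadm and Cpt1a are the members with a called change and Ehhadh stands beside them with a large step between fed and fasted windows. The sequences are RefSeq promoters of GRCm38.p6, printed 5′ to 3′ on the strand of the gene, with capitals for the hexamer AGGTCA in either orientation, the core that nuclear receptors such as PPARα bind. Acadm lies on the minus strand (chr3:153944644-153944893), Cpt1a on the plus strand (chr19:3323051-3323300) and Ehhadh on the minus strand (chr16:21787835-21788084).
Acadm: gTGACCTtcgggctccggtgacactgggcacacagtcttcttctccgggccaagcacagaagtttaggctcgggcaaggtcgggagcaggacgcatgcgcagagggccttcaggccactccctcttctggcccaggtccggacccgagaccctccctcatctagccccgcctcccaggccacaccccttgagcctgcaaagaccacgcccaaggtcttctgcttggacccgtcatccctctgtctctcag
Cpt1a: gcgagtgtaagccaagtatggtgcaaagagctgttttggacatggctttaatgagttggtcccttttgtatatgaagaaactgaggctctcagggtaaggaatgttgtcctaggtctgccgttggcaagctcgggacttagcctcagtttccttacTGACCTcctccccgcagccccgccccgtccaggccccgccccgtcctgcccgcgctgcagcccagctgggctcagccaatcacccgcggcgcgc
Ehhadh: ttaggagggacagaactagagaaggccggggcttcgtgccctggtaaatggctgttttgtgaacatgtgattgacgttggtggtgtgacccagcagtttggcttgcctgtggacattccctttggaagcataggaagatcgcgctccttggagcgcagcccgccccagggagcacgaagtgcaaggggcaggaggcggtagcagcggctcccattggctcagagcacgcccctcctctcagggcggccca
The hexamer begins 249 bases before the start of Acadm and 94 bases before that of Cpt1a, and the Ehhadh window holds none. On both strands, 4607 of 32851 promoters of this length hold it (14.0%), and of the 5 members in the promoter set (Acadm, Acot1, Cpt1a, Ehhadh and Pdk4) Acadm and Cpt1a hold it. The full direct repeat with 1 base between, AGGTCANAGGTCA, occurs in 11 promoters (0.0335%), and a looser form with 1 free base in each hexamer, AGGNCANAGGNCA, in 111 (0.338%). No member holds either. The start used for Cpt1a lies inside its annotated span. These matches describe letters and say nothing of binding. The promoters of Cyp4a10, Cyp4a14 and Acaa2 are not shown.

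Acadm encodes medium-chain acyl-CoA dehydrogenase, which takes the first step of mitochondrial β-oxidation for medium-chain fatty acids. It lies on chromosome 3 of GRCm38.p6 from 153922353 to 153944643. Fasting more than doubled its reading in livers of both genotypes. In fed WT livers the reading was 114.2, 123.9 and 126.2 FPKM, and in fasted WT livers it was 295.5 and 322.3 FPKM. In p21KO livers it was 128.2 and 114.2 FPKM when fed and 315.3 and 266.7 FPKM when fasted. Every fasted liver was above every fed liver, while the genotypes overlapped within each feeding state. The named row itself held under 1 FPKM in 8 libraries and 266.7 FPKM in p21KO fasted replicate 2, so the named row cannot be compared as it stands. The high value stood 5 rows before to 1 row after the name and was 4.56 to 32.9 times the next highest.

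**Figure D1:**
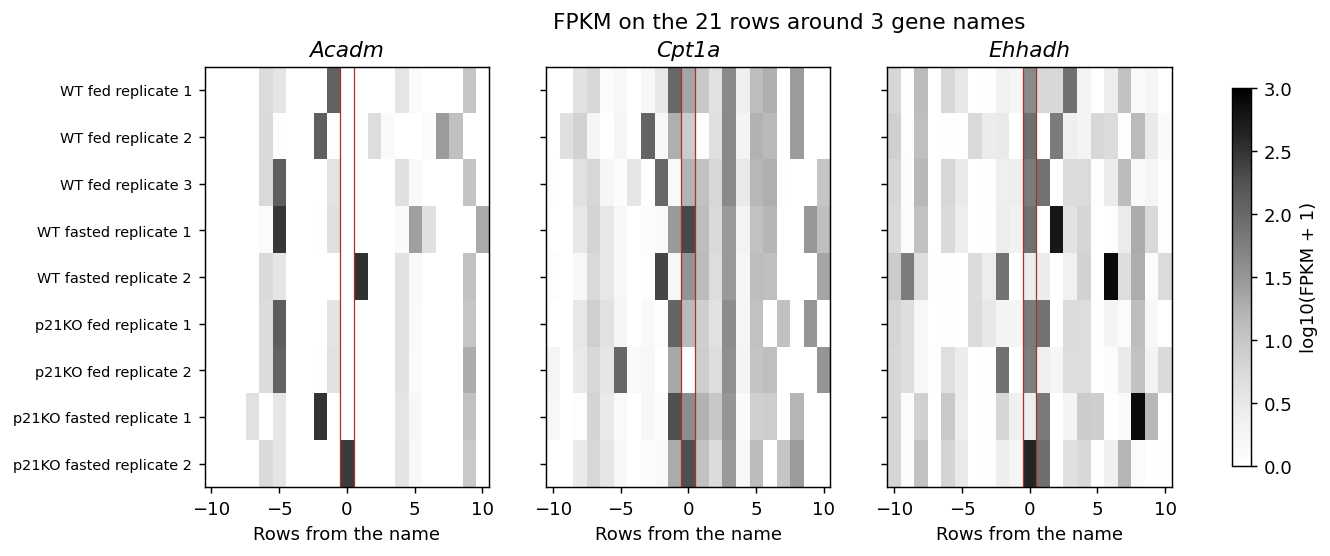
FPKM on the 21 rows around the names of Acadm, Cpt1a and Ehhadh in the 9 libraries, as log10(FPKM + 1) in grey from 0 to 3, with red lines around the named row. Each library has 1 dark row near Acadm, 5 rows before to 1 row after the name, while the fed libraries have no single dark row near Ehhadh.

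The mean Acadm reading was 121 ± 6.38 FPKM (SD, n = 3) in fed and 309 ± 18.9 FPKM (SD, n = 2) in fasted WT livers, a ratio of 2.54. In p21KO livers the means were 121 ± 9.89 FPKM (SD, n = 2) and 291 ± 34.4 FPKM (SD, n = 2), a ratio of 2.40. On log2(FPKM + 1), limma gave a change of 1.34 in WT livers (SE 0.11, 95% interval 1.08 to 1.60, Benjamini-Hochberg adjusted p = 0.000196 over 181 genes). In p21KO livers it gave 1.25 (SE 0.12, 95% interval 0.97 to 1.54, adjusted p = 0.00053). These p-values rest on the spread between single libraries within groups, pooled over all groups and moderated across the readable genes. They take each reading as exact and leave out the error of tying a value to a gene. Of all readable genes, 18.2% were called higher and 11.0% lower after fasting in WT livers (33 and 20 genes), and 17.1% higher and 9.94% lower in p21KO livers (31 and 18 genes). With the libraries scaled to 1 median reading these counts became 30 and 30 in WT and 25 and 34 in p21KO livers. Without WT fasted replicate 2, which leaves 1 fasted WT liver, 20 genes were called higher and 2 lower in WT livers. The call for Acadm held in all 18 alternatives in which it could be read, in each genotype, with changes of 1.20 to 1.40 in WT and 1.08 to 1.37 in p21KO livers.

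Cpt1a encodes the liver form of carnitine palmitoyltransferase 1, the rate-limiting entry of long-chain fatty acids into mitochondria, and lies on chromosome 19 from 3322326 to 3385735. Its reading also rose with fasting in both genotypes. Fed WT livers held 97.3, 106.9 and 98.7 FPKM, and fasted WT livers held 208.5 and 224.5 FPKM. Fed p21KO livers held 105.5 and 100.5 FPKM and fasted p21KO livers 179.1 and 185.2 FPKM. The fed groups overlapped, every fasted liver was above every fed one, and both fasted p21KO livers were below both fasted WT livers. Only in WT fasted replicate 1 and p21KO fasted replicate 2 did this value stand on the named row, and in the other 7 libraries it lay 1 to 5 rows before it. It was 2.30 to 2.85 times the next highest in fed livers and 4.78 to 7.15 times in fasted ones, so Cpt1a was read only under the looser rule of 2 times.

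**Figure D2:**
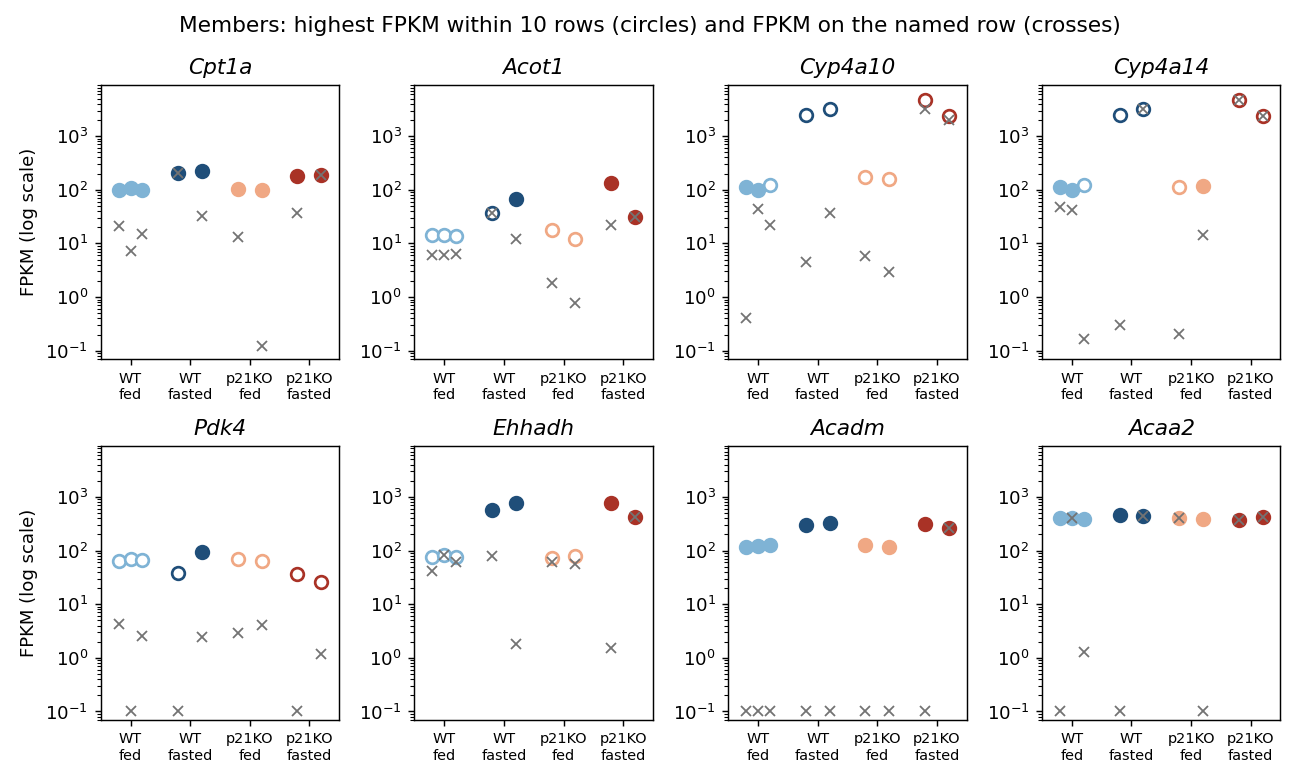
FPKM (log scale) of the 8 members in the 9 libraries. Circles give the highest value within 10 rows of the name, filled where it was at least 2 times the next highest, and crosses the value on the named row, with values under 0.1 drawn at 0.1. For 6 members all fasted circles lie above all fed ones, and for Pdk4 and Acaa2 they overlap.

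The mean Cpt1a reading was 101 ± 5.15 FPKM (SD, n = 3) in fed and 217 ± 11.3 FPKM (SD, n = 2) in fasted WT livers. The p21KO means were 103 ± 3.57 FPKM (SD, n = 2) and 182 ± 4.30 FPKM (SD, n = 2). The log2 change was 1.09 in WT (SE 0.08, limma adjusted p = 0.000355 over 301 genes) and 0.82 in p21KO livers (SE 0.09, adjusted p = 0.00173). Under the 2 times rule 13.0% of the 301 genes were called higher after fasting in WT and 13.3% in p21KO livers. Scaling to 1 median reading moved the median log2 change of these genes in p21KO livers from 0.006 to -0.12, and the calls there from 40 higher and 26 lower to 34 and 57. Both calls for Cpt1a held in all 17 alternatives that gave a value, but the size fell to 0.59 in WT and 0.40 in p21KO livers when all FPKM within 10 rows were summed, a sum that also takes in the neighbouring genes.

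Acaa2 encodes mitochondrial acetyl-CoA acyltransferase 2, the thiolase of the last step of β-oxidation, and lies on chromosome 18 from 74779212 to 74806207. It had the highest reading of the 3 readable members in every library, and no change with fasting was called. Fed WT livers held 399.4, 408.5 and 383.5 FPKM, and fasted WT livers held 468.2 and 440.5 FPKM. Fed p21KO livers held 411.8 and 393.5 FPKM and fasted p21KO livers 364.4 and 420.2 FPKM. Both fasted WT livers were above every fed liver, while the fasted p21KO livers lay on either side of the fed ones. The means were 397 ± 12.7 (SD, n = 3) and 454 ± 19.6 FPKM (SD, n = 2) in fed and fasted WT livers, and 403 ± 13.0 and 392 ± 39.4 FPKM (SD, n = 2 each) in p21KO livers. The log2 change was 0.19 in WT (95% interval -0.04 to 0.42, limma adjusted p = 0.211) and -0.04 in p21KO livers (95% interval -0.29 to 0.21, adjusted p = 0.841). The 3 genes kept 1 order in each of the 9 libraries, Acaa2 above Acadm above Cpt1a in FPKM, which is scaled by transcript length.

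Ehhadh encodes the peroxisomal bifunctional enzyme, which carries out the hydratase and dehydrogenase steps of peroxisomal β-oxidation, and lies on chromosome 16 from 21761285 to 21787834. Near its name each fasted library held 1 value far above the rest, and no fed library did. The highest value within 10 rows was 76.2, 80.9 and 75.3 FPKM in fed WT livers and 73.9 and 77.4 FPKM in fed p21KO livers. In fasted livers it was 569 and 756 FPKM in WT and 777 and 431 FPKM in p21KO. All 4 fasted windows were above all 5 fed windows, the lowest fasted value being 5.32 times the highest fed one. In fasted livers the high value was 5.30 to 12.4 times the next highest, which lay at 62.4 to 81.3 FPKM. In fed livers the highest was 1.23 to 1.84 times the next, so the value of Ehhadh could not be told from a neighbour there. Since any value of Ehhadh on these rows is at or under the highest, the fed windows give a ceiling of 80.9 FPKM for it, if its value lies within 10 rows. The named row held 431 FPKM in p21KO fasted replicate 2 and 1.51 to 80.9 FPKM in the other 8 libraries.

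Cyp4a10 and Cyp4a14 encode microsomal cytochromes P450 that hydroxylate the end carbon of fatty acids (ω-oxidation). They are neighbours on chromosome 4, Cyp4a14 from 115486200 to 115496158 and Cyp4a10 from 115518287 to 115533649, and their names stand 2 rows apart, so the 2 windows share most rows and are not independent. In p21KO fasted replicate 2, whose column follows the names most closely, the row named Cyp4a14 held 2348 FPKM and that named Cyp4a10 held 1961 FPKM. The highest value in the Cyp4a14 window was 111.4, 99.4 and 120.3 FPKM in fed WT livers and 114.0 and 118.0 FPKM in fed p21KO livers. It was 2458 and 3198 FPKM in fasted WT livers and 4740 and 2348 FPKM in fasted p21KO livers. The windows of the fasted livers did not overlap those of the fed livers, with the lowest fasted value 19.5 times the highest fed one.

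Each fasted library also held a second high value near the Cyp4a names, so a pair of high rows stood there and neither gene had a lone value. The second value was 1651 and 2405 FPKM in fasted WT livers and 3220 and 1961 FPKM in fasted p21KO livers. The lowest of these was 13.7 times the highest value in any fed Cyp4a14 window. Which of the pair belonged to Cyp4a10 and which to Cyp4a14 could not be told in the WT livers. In the fasted p21KO livers the pair stood on the rows with these names, which need not be their own. In the window of Cyp4a10 the highest value was the same in 7 of the 9 libraries, and in fed p21KO livers it was 171.3 and 160.2 FPKM, 10 and 9 rows after the name. Reads shared between these closely related genes can be split differently between them by the abundance estimate.

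Acot1 encodes a cytosolic acyl-CoA thioesterase, which releases free fatty acids from acyl-CoA, and lies on chromosome 12 from 84009502 to 84017670 beside close relatives such as Acot2. Its window was higher in every fasted than in every fed liver, and the fasted livers differed most among themselves here. The highest value was 14.2, 14.2 and 13.6 FPKM in fed WT livers and 18.0 and 12.3 FPKM in fed p21KO livers. Fasted WT livers held 37.6 and 68.6 FPKM, and fasted p21KO livers held 135.9 and 31.6 FPKM. In fed livers that value was 1.03 to 1.42 times the next and stood 4 to 10 rows from the name, so it gives only a ceiling for Acot1. In WT fasted replicate 1 and p21KO fasted replicate 2 the high value stood on the row named Acot1, and in the other 2 fasted libraries on the row named Acot2. Whether it was Acot1 in the latter could not be told.

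Pdk4 encodes pyruvate dehydrogenase kinase 4, which restrains the use of glucose carbon by inhibiting pyruvate dehydrogenase, and lies on chromosome 6 from 5483351 to 5496278. It could not be read in any library. Its named row held 0 to 4.25 FPKM in the 9 libraries and 1.17 FPKM in p21KO fasted replicate 2. The highest value within 10 rows was 62.5, 68.8 and 67.2 FPKM in fed WT livers and 70.0 and 64.8 FPKM in fed p21KO livers. It was 37.3 and 94.0 FPKM in fasted WT livers and 36.1 and 25.7 FPKM in fasted p21KO livers, and the fed and fasted livers overlapped. This value was 1.03 to 2.47 times the next highest and stood 4 to 9 rows from the name, so it cannot be tied to Pdk4.

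In 6 of the 8 members the highest value within 10 rows was larger in all 4 fasted than in all 5 fed livers, the exceptions being Pdk4 and Acaa2. Of 21594 windows with at least 10 FPKM in a library, 12.9% showed this separation. Windows of neighbouring names share rows, so this is a share of windows and not of genes. The windows of Cyp4a10 and Cyp4a14 share their high rows, so the 6 members hold 5 separate signals. With 20 rows on either side the count was 3 members (Cyp4a10, Cyp4a14 and Acadm), against 15.3% of all windows, and the Cpt1a window was lower in every fasted than in every fed liver. With 5 rows it was 5 members, Ehhadh being lost, against 10.3% of all windows.

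The genotypes were compared within each feeding state for the 3 members that could be read. In fasted livers the log2 difference of p21KO from WT was -0.09 for Acadm (95% interval -0.37 to 0.19, limma adjusted p = 0.896). For Cpt1a it was -0.25 (95% interval -0.46 to -0.04), where the limma adjusted p = 0.31 failed the correction, although both p21KO livers were below both WT livers and the interval excludes 0. For Acaa2 the difference was -0.21 (95% interval -0.47 to 0.04, adjusted p = 0.444). Among all readable genes 0.552% (1 of 181) were called between the fasted genotypes, and 0.664% (2 of 301) under the 2 times rule. The 1 gene was Agpat5, read at 14.6 and 11.7 FPKM in fasted WT and 0.0814 and 1.70 FPKM in fasted p21KO livers. The value of 0.0814 FPKM was the lowest reading of any readable gene, so this call rests on windows that were almost empty. Without p21KO fasted replicate 2 the first count was 16 genes (7 higher and 9 lower), in a fit that assumes the 1 remaining fasted p21KO liver to vary like the other groups.

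In fed livers the 3 genes lay close together in both genotypes. The p21KO difference was -0.003 for Acadm (95% interval -0.26 to 0.25), 0.03 for Cpt1a (95% interval -0.16 to 0.22) and 0.02 for Acaa2 (95% interval -0.21 to 0.25). The share of readable genes called between fed genotypes was 0.552% (1 of 181), and 0.664% (2 of 301) under the 2 times rule. The difference in the fasting change itself, p21KO less WT, was -0.09 for Acadm (95% interval -0.47 to 0.30, limma adjusted p = 0.958), -0.28 for Cpt1a (95% interval -0.56 to 0.01, adjusted p = 0.766) and -0.23 for Acaa2 (95% interval -0.58 to 0.11, adjusted p = 0.859). No gene was called for it (0.0% of 181 and 0.0% of 301), with 11 and 17 genes at an unadjusted p under 0.05. All 3 intervals include 0, so they leave room for a smaller or a larger fasting change in p21KO livers.

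**Figure D3:**
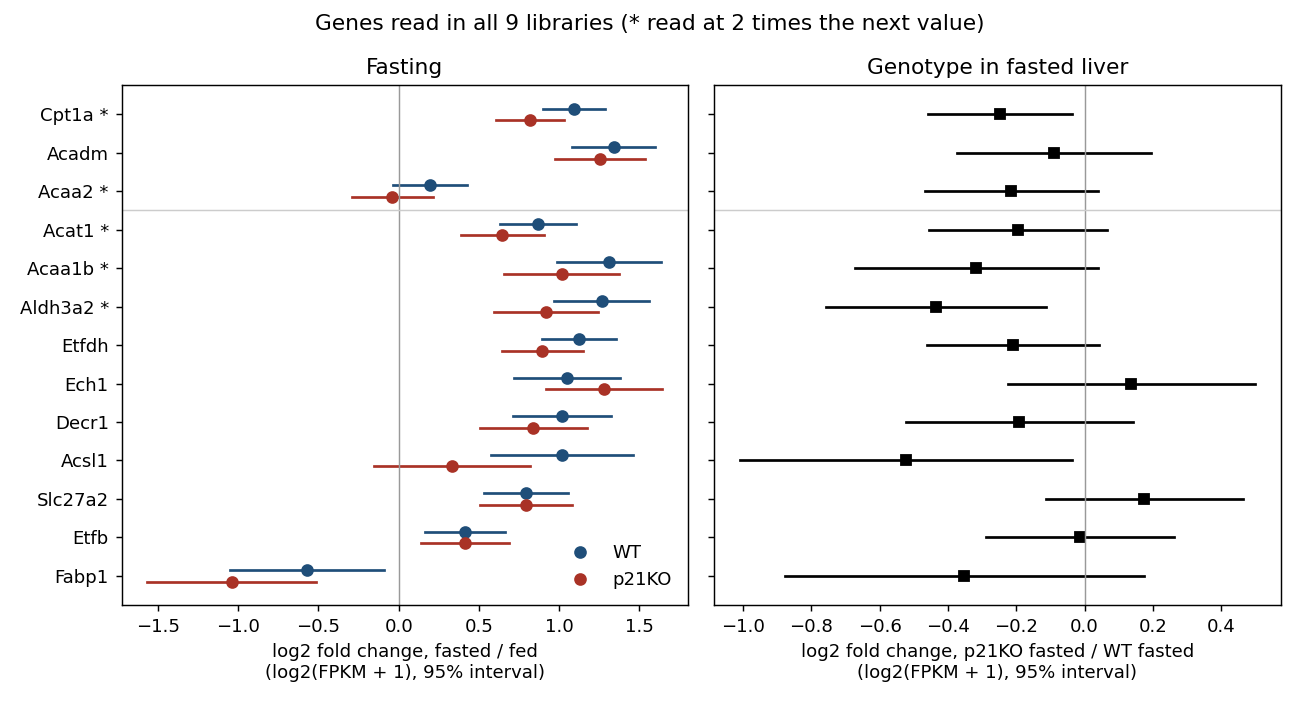
Log2 changes on log2(FPKM + 1) with 95% intervals for the 3 readable members (above the grey line) and 10 other genes of the pathway, with fasted over fed livers on the left (WT blue, p21KO red) and fasted p21KO over fasted WT livers on the right. Acadm and Cpt1a lie right of 0 in both genotypes, at 1.34 and 1.09 in WT livers, and Acaa2 crosses 0 in both.

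A list of 62 other genes of the pathway was set beside the members, from PPARα and its partners to secreted targets, uptake, β-oxidation, ketogenesis and lipid droplets. Of these, 7 were readable, and none of the regulators or secreted targets was among these. In WT livers 6 of the 7 were called higher after fasting and none was called lower. Fabp1 gave a negative change there that was not called. The median log2 change in WT livers was 1.02 against 0.01 over all 181 readable genes, of which 18.2% were called higher. In p21KO livers 5 were called higher and 1 lower, with a median of 0.79 against 0.03, beside 17.1% of readable genes called higher and 9.94% lower.

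Among genes of β-oxidation, Etfdh, which passes electrons from acyl-CoA dehydrogenases to the respiratory chain, rose by a log2 change of 1.12 in WT and 0.89 in p21KO livers. Ech1 and Decr1, auxiliary enzymes for unsaturated fatty acids, rose by 1.05 and 1.02 in WT and by 1.28 and 0.84 in p21KO livers. Etfb, a subunit of the electron transfer flavoprotein, rose by 0.41 in each. Of the 20 alternatives, Etfb was called in 14 in WT and 9 in p21KO livers.

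Uptake and activation genes did not all move one way. Slc27a2, a fatty acid transporter and acyl-CoA synthetase, rose by 0.79 in each genotype. Acsl1, a long-chain acyl-CoA synthetase, rose by 1.02 in WT livers (limma adjusted p = 0.00763) and gave 0.33 in p21KO livers (adjusted p = 0.271). Fabp1, the liver fatty acid binding protein, fell by 1.04 in p21KO livers (adjusted p = 0.0123) and gave -0.57 in WT livers (adjusted p = 0.0722). Under the 2 times rule Acaa1b, Acat1 and Aldh3a2 joined the list and rose in both genotypes. The highest value near Acaa1b was also the highest near its neighbour Acaa1a in all 9 libraries, so it may belong to either gene. Of the 10 genes of the list read at 2 times, 9 were called higher in WT and 8 in p21KO livers, beside 13.0% and 13.3% of the 301 genes. No gene of the list was called between genotypes when fasted or fed, nor for the difference of the fasting change. In fasted livers the median p21KO difference of the 7 genes read at 3 times was -0.19, against -0.03 over all readable genes.

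The fasted livers differed among themselves by member. In the windows of Acot1, Ehhadh and Cyp4a14 the order of the highest value was p21KO fasted replicate 1, WT fasted replicate 2, WT fasted replicate 1 and p21KO fasted replicate 2 from high to low. Near Acot1 the values of the livers may belong to different genes, so no ratio is given. Replicate 1 of the fasted p21KO livers held 2.02 times the highest value of replicate 2 in the Cyp4a14 window and 1.80 times in the Ehhadh window. For the readings of Acadm, Cpt1a and Acaa2 the ratio was 1.18, 0.967 and 0.867. In fasted WT livers the ratio of replicate 2 to replicate 1 was 1.30 in the Cyp4a14 and 1.33 in the Ehhadh window, and 1.09, 1.08 and 0.941 for Acadm, Cpt1a and Acaa2. The WT values of these 3 windows lay between the 2 p21KO values, so the fasted genotypes overlapped in each.

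**Figure D4:**
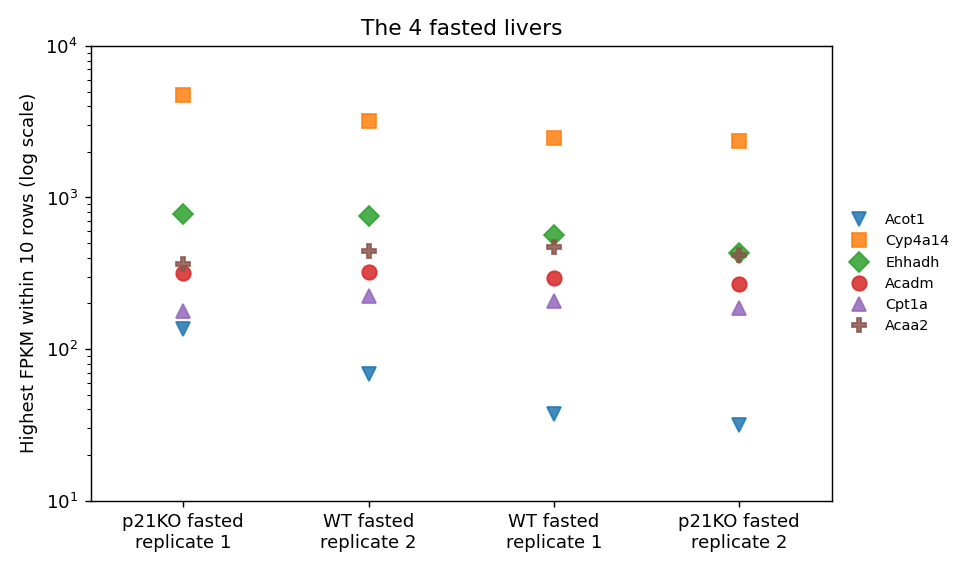
Highest FPKM within 10 rows (log scale) of 6 members in the 4 fasted livers, ordered from left to right by the value in the Acot1 window. The windows of Acot1, Ehhadh and Cyp4a14 step down across the 4 livers, from 777 to 431 FPKM near Ehhadh, while Acadm spans 266.7 to 322.3 FPKM.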

How the data were processed

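Liver RNA-seq of 9 mice was analysed. The authors deposited FPKM values from reads aligned to GRCm38/mm10, with no scaling between libraries stated. Cufflinks (versions 1.3.0 and 2.2.1), SAMtools 0.1.16, Bowtie 0.12.7 and TopHat2 2.0.4 are named in the submitters' processing notes. The labels describe a stranded poly(A)+ kit and the paper a low-input cDNA kit, and which was used for these libraries is not settled here. FPKM holds no counts, so depth is unknown and no counting interval is given. Of 23746 rows, 23044 carry a name that stands on 1 row only, and 240 names stand on several.

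The order of the rows was inferred from the values, since no source describes it. Readings (the highest FPKM within 10 rows) were transformed as log2(FPKM + 1) and compared with limma 3.58.1 in R 4.3.3, on the 4 group means with variances moderated along a trend. Benjamini-Hochberg adjustment ran over all readable genes, and calls were made below an adjusted p of 0.05. Of the readings of readable genes in the other 8 libraries, 46.4% stood on the named row and 94.1% within 5 rows. These genes had passed the rule of a lone value within 10 rows, so the shares say nothing of other genes. A lone high value can belong to a neighbouring gene, and no other data here identify it. The functions were run on simulated data in which rows moved by short distances, mostly within the window. That run does not cover genes outside their window, as Alb was in some libraries, p21KO fasted replicate 2 among them, and lends no support to the readings here. Alternatives were windows of 5 or 20 rows, 2 or 5 times the next highest, a pseudocount of 0.1, a minimum mean of 10 FPKM, scaling to 1 median reading, the sum of the window, no trend in the variance, a replicate block, the compared groups alone, and each library left out. Where that left 1 library in a group, it was assumed to vary like the other groups.

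The 8 members and the gene lists were chosen with earlier results of these data known. All members are named, and of the other pathway genes those readable and called in a comparison. Some genes are not reported here and were left out of the list counts. The count of non-overlapping windows, and the alternatives run for Cpt1a and Acaa2 under the 2 times rule, were decided on once the data had been seen. Sequences and positions are from RefSeq on GRCm38.p6. Scripts used Python 3.11.15, NumPy 2.4.6, pandas 2.3.3 and matplotlib 3.10.9.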

Additional observations from a re-analysis of the deposited data

How the results depend on the processing

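Of 262 values of Acadm, Cpt1a and Acaa2 under alternatives, 248 kept their direction and side of the threshold, and 14 turned sign, none of them called. For Acadm, leaving out each library gave fasted p21KO less WT differences of -0.21 to 0.03, fed differences of -0.09 to 0.08 and differences of the fasting change of -0.21 to 0.03. Its fed difference was 0.05 after scaling and 0.03 with the replicate block. For Cpt1a the fed difference was -0.03 with the window sum and -0.006 to 0.07 without each library. For Acaa2 the p21KO fasting change was -0.14 to 0.06 without each library, and its fed difference was -0.02 with the sum, -0.005 with the replicate block and -0.01 to 0.05 without each library. Acadm was not readable with 20 rows or 5 times, so those gave no value, and the difference of the fasting change cannot be had from the compared groups alone. Of 366 values of other pathway genes, 339 kept their side, 23 lost and 4 gained a call.

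Genes called after fasting in WT livers were 53, against 34 with the replicate block, 31 at 5 times and 22 to 68 without each library (34 without WT fed replicate 1, 29 without WT fasted replicate 1 and 22, of them 2 lower, without WT fasted replicate 2). In p21KO livers they were 49, against 74 with 5 rows, 31 with 20 rows, 26 at 5 times and 36 to 65 without each library. Between fasted genotypes 1 gene was called, against 2 with 5 rows, with 20 rows, after scaling or at 2 times, 0 with pseudocount 0.1, the replicate block, the compared groups alone or 5 times, and 0 to 16 without each library (0 without either WT fasted library, 16 without p21KO fasted replicate 2). Between fed genotypes 1 gene was called, against 3 with 5 rows, 2 with the sum or at 2 times, 0 with 20 rows or the replicate block, and 0 to 1 without each library. For the difference of the fasting change 0 were called, against 2 with 5 rows, 1 with 20 rows and 0 to 11 without each library (11 without p21KO fasted replicate 2). The 6 members with all fasted above all fed windows (12.9% of all windows) became 3 with 20 rows (15.3%), where Cpt1a separated the other way, an alternative chosen after seeing the data. The cause of these moves was not tested. The labels tie replicate numbers to no shared source, and deviations of same-numbered libraries correlated at -0.26 to 0.56, with 9 distinct values because the 2 deviations in a group of 2 mirror each other.

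Depth is unknown, each fasted or p21KO group holds 2 livers, and 5 members could not be read.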

Other observations

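Over the 9 libraries, readings that followed those of Acadm closely were those of Mat1a, Etfdh, Cyp8b1, Decr1 and Ech1, with Pearson's r of 0.992, 0.991, 0.989, 0.988 and 0.981. The libraries share the step between fed and fasted livers, so these are descriptions with no test. Cyp8b1, a sterol hydroxylase of bile acid synthesis, read 127, 148 and 132 FPKM in fed WT and 295 and 357 FPKM in fasted WT livers. It read 148 and 114 FPKM in fed and 344 and 320 FPKM in fasted p21KO livers, with no overlap between feeding states. Mat1a, which makes S-adenosylmethionine in liver, read 297 to 335 FPKM in fed WT and 2661 to 2910 FPKM in fasted WT livers, and 286 to 305 FPKM in fed and 2770 to 3871 FPKM in fasted p21KO livers. Whether these values belong to the gene named on the row was not tested.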
